A study of Arabidopsis thaliana with 357 samples.

Results

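Cysteine-rich receptor-like kinases (CRKs) form a large receptor kinase family of Arabidopsis thaliana, and their transcripts were followed in leaves treated with flg22, a peptide of bacterial flagellin. The genes were chosen by gene code alone, and 39 of the 33600 rows of the read count table are CRK genes. All 39 had at least 1 read. Of these, 23 passed a filter on low counts (fewer than 50 libraries without reads, and a 15th highest count above 25) and were tested among 11848 genes. The other 16 are described by their reads. A member could pass the filter through the genotypes or times in which its transcript was high.

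The study profiled 17 genotypes at 7 times, in 3 replicates, which gave 357 libraries. The times were 0 h, when leaves were left untouched, and then 1, 2 and 3 h as well as 5, 9 and 18 h past infiltration with flg22 at 1 μM. In 16 genotypes each of 4 immune signaling genes is either mutated or intact, in all combinations. The mutant alleles are dde2-2 (jasmonate synthesis), ein2-1 (ethylene signaling), pad4-1 (the immune regulator PAD4) and sid2-2 (stress-induced salicylic acid synthesis). A small letter in a genotype's name marks the mutated gene in the order DDE2, EIN2, PAD4 and SID2, so that jeps is the quadruple mutant and JEPS the wild type. The genotype fls2 lacks FLS2, the flg22 receptor, and has the other genes intact. It received flg22 like the others and is the control for infiltration and time, since no mock treatment was included. All lines are in the Col-0 background, the mutations are present in the whole plant, and a replicate is a pool of 12 leaves from 4 experiments. The p-values measure the spread between these pools. In whole leaves, fewer cells of a type and less RNA per cell cannot be told apart.

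A typical CRK has an extracellular part with cysteine-rich DUF26 domains, a membrane span and a cytosolic kinase. The family is known for rapid transcriptional responses to pathogens, reactive oxygen and hormones. CRK2 acts on the NADPH oxidase RBOHD, which makes the apoplastic oxidative burst. CRK4, CRK6 and CRK36 have been found in association with FLS2, and CRK28 with the co-receptor BAK1. Overexpression of CRK5, CRK13 or CRK20 is known to cause cell death or defense activation. CRK6 and CRK7 are linked to responses to extracellular reactive oxygen, and CRK36 and CRK45 (ARCK1) to abscisic acid.

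Most CRK genes are neighbors. In the TAIR10.1 annotation 35 of the 39 lie on chromosome 4, 2 on chromosome 1 (CRK2 and CRK3), 1 on chromosome 3 (CRK4) and 1 on chromosome 5 (CRK42). Arrays hold 32 members, in 5 arrays. The largest has 19 members in 74.2 kb at chr4:12117491-12191704, from CRK5 to CRK24, with 2 other protein-coding genes between its ends. CRK36 to CRK40 lie at chr4:2231717-2292965, CRK30 to CRK33 at chr4:6963521-6981548, CRK28 and CRK29 at chr4:11398857-11405235, and CRK2 and CRK3 at chr1:26584729-26591776. CRK28 and CRK29 overlap on the same strand, as do CRK16 and CRK17, while CRK10 and CRK11 overlap on opposite strands. Tag-Seq reads come from the transcript's 3′ end. In the last 300 bases of their transcripts 14 members share a 30-base word with another gene, and 4 share more than 10% of their words: CRK29 (50%, with CRK28), CRK8 (42.9%), CRK17 (26.7%) and CRK20 (15.2%). The authors kept reads unique to a gene, and the counts of these genes and of CRK28 are uncertain.

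Upstream sequences are shown because the W-box, the site bound by WRKY transcription factors, was frequent in them. Its letters (TTGACC or TTGACT, on either strand) were sought in the 250 bases before each annotated gene start. They occur in 24 of the 39 CRK windows and in 28.4% of the 27443 windows of all genes. At least 2 sites occur in 11 CRK windows and in 6.18% of all windows. Among the 23 tested members 11 have a site. CRK29 and CRK24 are the members with a site among the 8 with the largest flg22 response differences, and CRK5 and CRK11 were added after the sites had been counted because they hold 3 and 4. Each window is written 5′ to 3′ on the gene's strand, minus for all 4, with W-box letters in capitals, and a run of 12 capitals is a pair of adjoining sites. They are chr4:11405236-11405485 for CRK29, chr4:12191705-12191954 for CRK24, chr4:12120221-12120470 for CRK5 and chr4:12143859-12144108 for CRK11 (RefSeq, TAIR10.1).
CRK29: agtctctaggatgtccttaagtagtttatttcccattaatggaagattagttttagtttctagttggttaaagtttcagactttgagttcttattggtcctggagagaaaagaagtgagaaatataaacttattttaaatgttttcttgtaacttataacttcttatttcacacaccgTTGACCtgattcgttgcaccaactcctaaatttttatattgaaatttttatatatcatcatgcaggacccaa
CRK24: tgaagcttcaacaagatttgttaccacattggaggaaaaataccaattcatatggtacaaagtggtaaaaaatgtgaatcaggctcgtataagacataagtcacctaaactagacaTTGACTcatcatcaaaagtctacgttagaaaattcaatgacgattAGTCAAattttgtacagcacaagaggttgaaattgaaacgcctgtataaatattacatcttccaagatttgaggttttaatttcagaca
CRK5: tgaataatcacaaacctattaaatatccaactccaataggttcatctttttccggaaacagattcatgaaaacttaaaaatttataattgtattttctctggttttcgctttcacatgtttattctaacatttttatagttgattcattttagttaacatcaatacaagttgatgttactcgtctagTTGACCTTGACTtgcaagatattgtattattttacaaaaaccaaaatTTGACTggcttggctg
CRK11: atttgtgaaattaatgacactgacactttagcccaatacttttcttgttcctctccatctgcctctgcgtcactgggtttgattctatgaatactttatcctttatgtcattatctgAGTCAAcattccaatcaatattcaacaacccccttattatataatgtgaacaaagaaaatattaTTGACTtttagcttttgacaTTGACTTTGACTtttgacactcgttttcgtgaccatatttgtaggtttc

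Of the other letters searched on both strands, TGACG, the core of TGA factor sites, occurs in 13 CRK windows (18.6% of all windows), the G-box CACGTG in 1 (6.49%) and the ethylene-response letters GCCGCC in 0 (1.87%). A match describes the window and is not a bound site. CRK13, CRK45, CRK3, CRK28, CRK7 and CRK22 have no W-box letters in this window, and the window of CRK28 lies inside CRK29. The window of CRK16, which is counted above with 2 sites, lies inside CRK17.

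A library had 372525 to 5130803 reads on genes (median 1275620), and CRK members took 0.267% of all reads. Normalized counts are reads divided by the library's 90th percentile count over 300, so that 1 read is worth 1 to 11.1 of them (median 3.53) and values under about 10 rest on few reads. The percentile had a median of 57 at 0 h and 86 to 96 later. Each mutated gene was lower in its mutant: the median was 59.1 with dde2-2 against 2068 without it for DDE2, 48.6 against 148 for EIN2, 25.9 against 254 for PAD4, 7.86 against 317 for SID2 and, in fls2 against the other genotypes, 7.59 against 129.9 for FLS2. The leaf transcript RBCS1A had a median of 37023, root PYK10 2.73, floral AG 3.30, and the senescence gene SAG12 no read. Of the 23 sequencing lanes 21 held 1 replicate, and no lane held more than 2 times.

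Most CRK transcripts rose more in JEPS than in the receptor mutant. Relative to 0 h, 21 of the 23 tested members had a higher response in JEPS at 1 time or more by the test, and 5 (CRK4, CRK6, CRK10, CRK40 and CRK42) were called lower at 1 or more times. The difference in response is the log2 change since 0 h in JEPS minus that in fls2, tested with edgeR's quasi-likelihood method, and a gene was called at a Storey q under 0.05 and an absolute log2 difference above 1. Of all genes, 22.4% were called higher and 35% lower, and with TMM scaling 28.4% higher and 28.7% lower (21 members higher and 4 lower). All 23 members were called in 1 or the other direction, against 56.4% of all genes. The members' median difference began at 1.76 (1 h) and 1.75 (2 h), was 2.225 (3 h), 2.01 (5 h) and 1.65 (9 h) and ended at 2.303 (18 h), while the median of all genes lay between -0.31 and 0.02. TMM scaling moved the median of all genes by 0.09 to 0.30 and DESeq2 scaling by -0.03 to 0.32 over the 6 times. At 1 h 15 members were called higher (7.41% of all genes), at 5 h 17 (13.3%) and at 18 h 16 (11.8%). With q-values pooled with those of the mutant comparisons, an alternative chosen after seeing the data, 19 members were called (33.7% of genes), without CRK7, CRK12, CRK24 and CRK41.

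**Figure D1:**
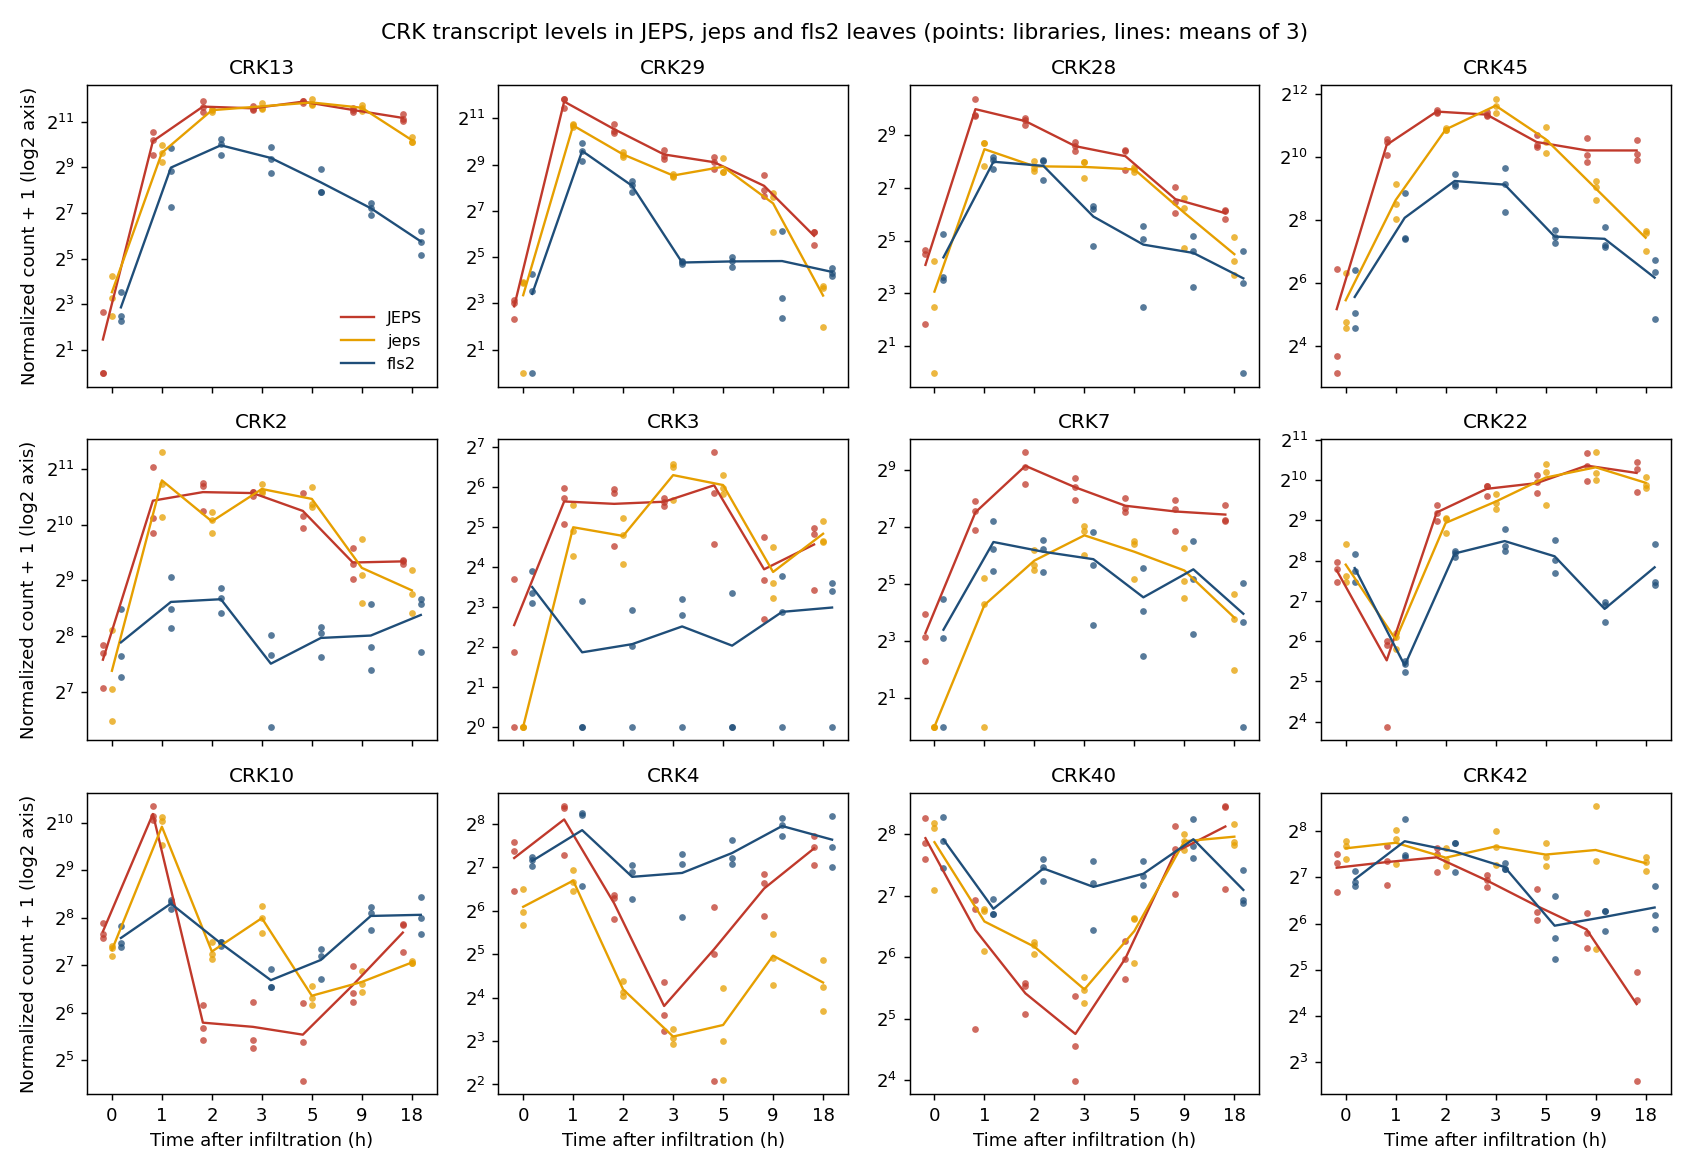
Normalized count plus 1 (log2 axis) of 12 CRK members by time after infiltration (h) in JEPS, jeps and fls2; points are libraries and lines join the means of 3. CRK29 was highest at 1 h in each of the 3 genotypes, and CRK13 in JEPS was between 2069.5 and 3841 at each time from 2 to 18 h.

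CRK13 (AT4G23210), known for cell death on overexpression, had the largest difference. At 18 h it had 2608, 2069.5 and 2207.5 normalized counts in JEPS, against 35.1, 72.2 and 51.9 in fls2. At 0 h it had 0, 0 and 5.26 in JEPS and 10.5, 4.62 and 3.80 in fls2, values of 0 to 3 reads. The genotypes were far apart at 18 h, and both were near the limit of detection at 0 h. The difference in response was 6.83 ± 1.20 (SE, q = 4.59e-07). At 2 h CRK13 had 3789, 2749 and 3166 in JEPS, against 1200.0, 1050.0 and 748 in fls2, so it was high in both genotypes early.

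CRK45 (ARCK1, AT4G11890) was called higher at each of the 6 times. At 18 h it had 1089, 1500.0 and 972.5 normalized counts in JEPS, against 105, 27.8 and 80.8 in fls2, with no overlap. The difference in response was 4.83 ± 0.60 (SE, q = 3.94e-12). At 0 h CRK45 had 85.7, 11.8 and 7.89 in JEPS, against 83.7, 32.3 and 22.8 in fls2, and these overlapped.

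CRK28 (AT4G21400) and CRK29 (AT4G21410) overlap in the genome and both were highest at 1 h. CRK29 at 1 h had 2801, 3695 and 3657 normalized counts in JEPS, against 965, 572 and 771 in fls2. CRK29 at 3 h had 799, 666 and 613 in JEPS, against 25.0, 26.5 and 27.3 in fls2 (5.23 ± 0.86, SE, q = 2.98e-07). The transcript was thus high in both genotypes at 1 h and at 3 h in JEPS but not in fls2. CRK28, the BAK1-associated kinase, had 329, 203 and 341 at 5 h in JEPS, against 46.4, 4.57 and 32.3 in fls2 (3.81 ± 0.83, SE, q = 5.59e-05). Reads of these overlapping genes can be hard to assign, so the values of CRK28 and CRK29 are not independent of each other.

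CRK2 (AT1G70520), which acts on RBOHD, was also called higher at each of the 6 times. At 3 h it had 1542, 1466.5 and 1539 normalized counts in JEPS, against 82.1, 259 and 202 in fls2 (3.38 ± 0.56, SE, q = 2.19e-07), with no overlap. CRK3 (AT1G70530), its neighbor, had few reads. CRK3 at 5 h had 22.8, 115 and 56.4 normalized counts in JEPS, against 0, 0 and 9.23 in fls2, and the difference of 5.49 ± 1.72 (SE, q = 1.49e-03) lost its call without replicate 1 (q = 5.38e-02).

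CRK7 (AT4G23150) and CRK24 (AT4G23320) were low at 0 h and were separated between the genotypes later. CRK7 at 18 h had 150.0, 147.5 and 215 normalized counts in JEPS, against 31.9, 0 and 11.5 in fls2 (3.73 ± 1.23, SE, q = 7.35e-03). CRK24 at 5 h had 58.7, 57.6 and 66.7 in JEPS, against 0, 13.7 and 4.62 in fls2 (3.72 ± 1.45, SE, q = 2.21e-02). Neither overlapped at those times. Both calls were lost without replicate 1 and without replicate 3 (CRK7 q = 1.07e-01 and 7.03e-02, CRK24 q = 3.10e-01 and 1.66e-01). With a term for sequencing lane the CRK24 difference was 1.71 (q = 1.88e-01).

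CRK5 (AT4G23130), CRK6 (AT4G23140) and CRK4 (AT3G45860) differed in time and direction. CRK5 at 9 h had 242, 352 and 285 normalized counts in JEPS, against 83.7, 88.7 and 94.4 in fls2 (2.33 ± 0.43, SE, q = 2.13e-06). CRK6, an FLS2-associated kinase, had 743, 688 and 654.5 at 1 h in JEPS, against 329, 286 and 174 in fls2 (2.71). At 5 h the order was turned round, with 13.0, 18.2 and 28.2 in JEPS, against 108, 137 and 314 in fls2 (-1.90). At 18 h CRK6 was higher again, with 300.0, 346 and 430.0 in JEPS, against 159.6, 27.8 and 127 in fls2 (3.04 ± 0.73, SE, q = 2.60e-04). At 0 h CRK6 had 92.9, 15.8 and 5.26 in JEPS, against 108, 50.8 and 49.4 in fls2. This starting difference (1.298 on the log2 scale, fls2 minus JEPS) was not called, and it enters each difference in response. All 3 of these CRK6 differences were called, while that at 3 h (0.06) was not. CRK4, also FLS2-associated, had 8.41, 11.2 and 19.4 at 3 h in JEPS, against 57.1, 156 and 134 in fls2 (-3.14 ± 0.68, SE, q = 3.48e-05).

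CRK21 (AT4G23290) and CRK22 (AT4G23300) are neighbors that were lower at 1 h than at 0 h in both genotypes. CRK22 at 1 h had 13.7, 58.7 and 62.7 normalized counts in JEPS, against 36.5, 42.2 and 44.7 in fls2, while at 0 h it had 221, 178 and 247 in JEPS, against 213, 175 and 285 in fls2. The difference in response at 1 h was 0.22 and was not called. CRK22 at 9 h had 1313, 1623 and 1005 in JEPS, against 126, 88.7 and 117.5 in fls2 (3.63 ± 0.49, SE, q = 2.61e-10). For CRK21 the 9 h values were 1032, 848 and 1014 in JEPS, against 83.7, 114 and 88.1 in fls2, a difference of 3.14. Neither gene overlapped between the genotypes at 9 h.

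**Figure D2:**
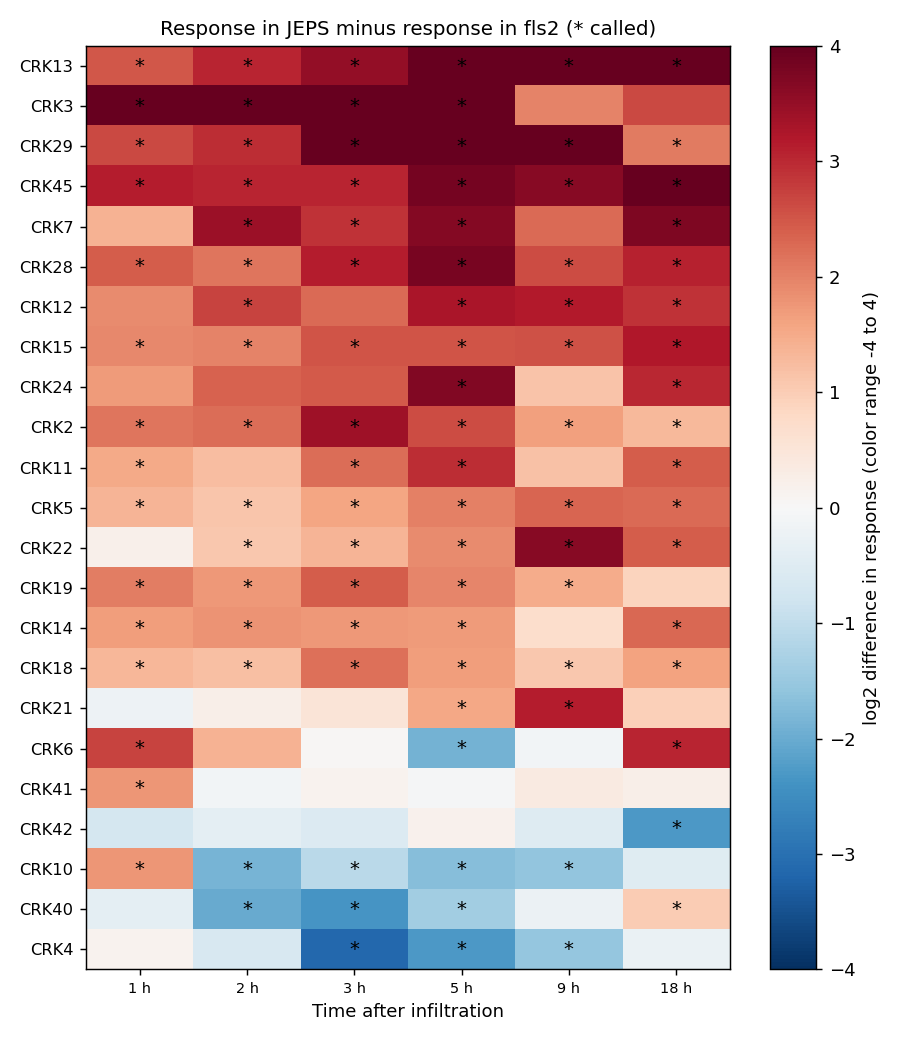
Difference in response (log2, JEPS minus fls2) of the 23 tested members (rows) at 1 to 18 h (columns), with an asterisk where called and colors ending at -4 and 4. CRK13, CRK29 and CRK45 were called higher at all 6 times, and CRK4, CRK10 and CRK40 were called lower at 3 or more times.

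Among the other members, CRK15 and CRK18 were called higher at all 6 times, CRK14 and CRK19 at 5, CRK11 and CRK12 at 4 and CRK41 at 1 h only (1.76). CRK10 (AT4G23180) at 1 h had 1130.1, 1059.8 and 1301 normalized counts in JEPS, against 289.6, 323 and 329 in fls2 (1.77), and was called lower at 2, 3, 5 and 9 h (-1.06 to -1.86). CRK40 (AT4G04570) at 3 h had 22.4, 14.9 and 40.3 in JEPS, against 85.7, 188 and 147 in fls2 (-2.35), and was called higher at 18 h (1.03). CRK42 (AT5G40380) at 18 h had 19.4, 5.08 and 30.0 in JEPS, against 112, 72.2 and 57.7 in fls2 (-2.297), its only call. The array therefore held both directions at 5 h, with CRK10 lower and CRK11, which overlaps it on the other strand, higher (2.97).

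**Figure D3:**
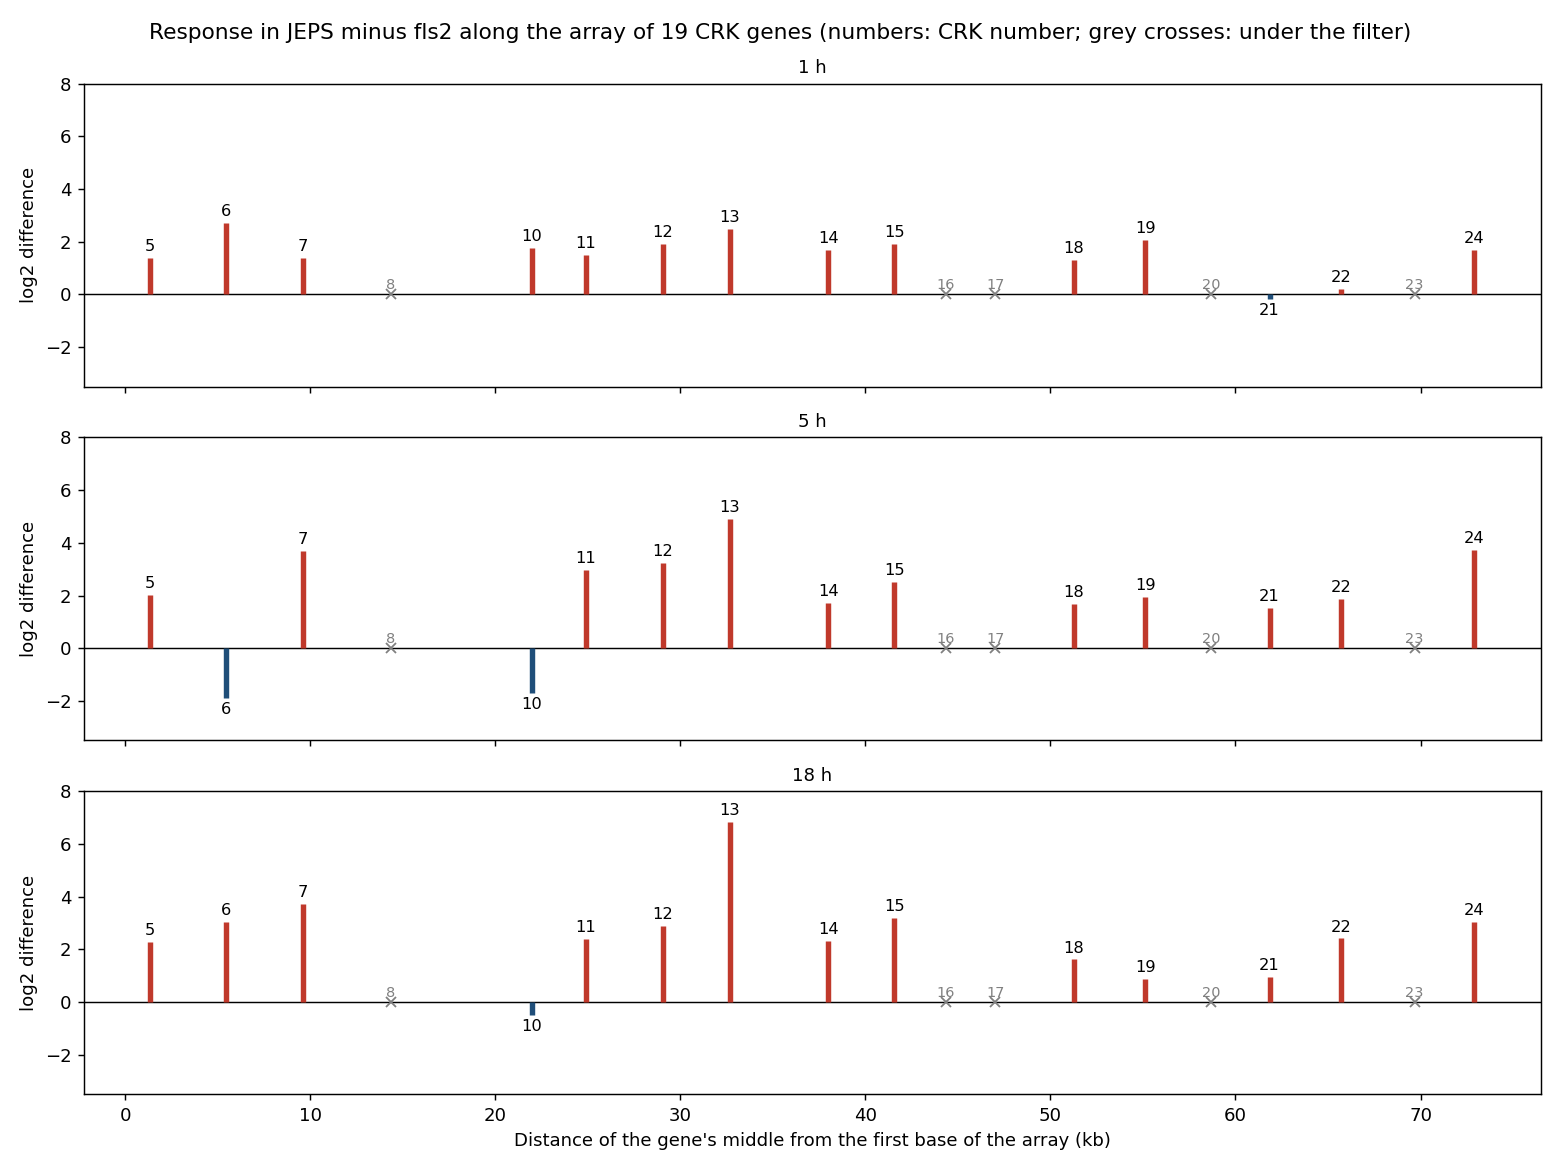
Difference in response (log2, JEPS minus fls2) at 1, 5 and 18 h of the CRK genes of the 19-member array, by distance of the gene's middle from the start of the array (kb); numbers are CRK numbers and grey crosses are members under the filter. CRK11 to CRK15 lay above 0 at each of the 3 times, and CRK10 and CRK6 lay below 0 at 5 h.

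CRK transcripts also changed in fls2 itself. Against 0 h, 13 of the 23 members were called higher at 1 or more times (28.7% of all genes) and 5 (CRK21, CRK22, CRK40, CRK41 and CRK42) lower (29.9%). At 1 h 12 were called higher (18% of all genes) and at 18 h 1, CRK13 (3.39%). The largest changes were those of CRK13 (7.26 at 2 h) and CRK29 (6.39 at 1 h). CRK2, CRK3, CRK4, CRK10 and CRK18 were not called at any time in this fit. With a replicate block within time, whose terms take up the spread that libraries of one time and number share, 22 of the 23 were called in either direction (70.2% of all genes), with CRK4 and CRK18 higher, CRK3 and CRK10 lower and CRK2 not called. Leaves of 1 to 5 h were taken close together in the day, and those of 0, 9 and 18 h at different hours, so that in these changes since 0 h infiltration and time of day cannot be told apart. Between fls2 and JEPS at 0 h, 0 members were called by edgeR (0.00844% of genes) and 0 by DESeq2, and 2 had an unadjusted p under 0.05 by either tool (2.57% of genes by edgeR and 2.25% by DESeq2).

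In the quadruple mutant most members still differed from fls2. Of the 23, 20 were called in jeps (39.9% of all genes), 18 higher (16.3%), and CRK4 and CRK40 lower (23.8%). CRK6, CRK12 and CRK42 were not called. The JEPS and jeps comparisons share the fls2 libraries, so their values are only set side by side. The difference of CRK13 at 18 h was 3.76 in jeps and 6.83 in JEPS, that of CRK29 at 3 h 3.58 in jeps and 5.23 in JEPS, and that of CRK2 at 3 h 3.60 in jeps and 3.38 in JEPS. CRK3, CRK7 and CRK24 had no read at 0 h in jeps, so their differences have no finite value. CRK22 at 9 h had 1146, 1646 and 1033 normalized counts in jeps.

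Each allele was next compared over the 16 genotypes, as the mean log2 level of the 8 with it minus that of the 8 without it at each time, 24 libraries against 24. With pad4-1, 7 of the 23 members were lower at 1 or more times (CRK4, CRK5, CRK6, CRK7, CRK13, CRK24 and CRK45) and 0 higher, where 2.61% of all genes were lower and 0.827% higher. With sid2-2, 5 were lower (CRK4, CRK6, CRK7, CRK24 and CRK45; 2% of genes), at 9 and 18 h only, and all 5 are among the 7. With ein2-1, 7 were higher (CRK6, CRK10, CRK13, CRK15, CRK41, CRK42 and CRK45; 5.71%) and 6 lower (CRK3, CRK7, CRK11, CRK24, CRK28 and CRK29; 4.43%). With dde2-2, 0 members were called by edgeR (6.42% of genes) and 0 by DESeq2, while 21 had an unadjusted p under 0.05 at 1 or more times by edgeR (70.4% of all genes) and 22 by DESeq2 (69.3%). All finite effects lay between -0.95 and 0.92.

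**Figure D4:**
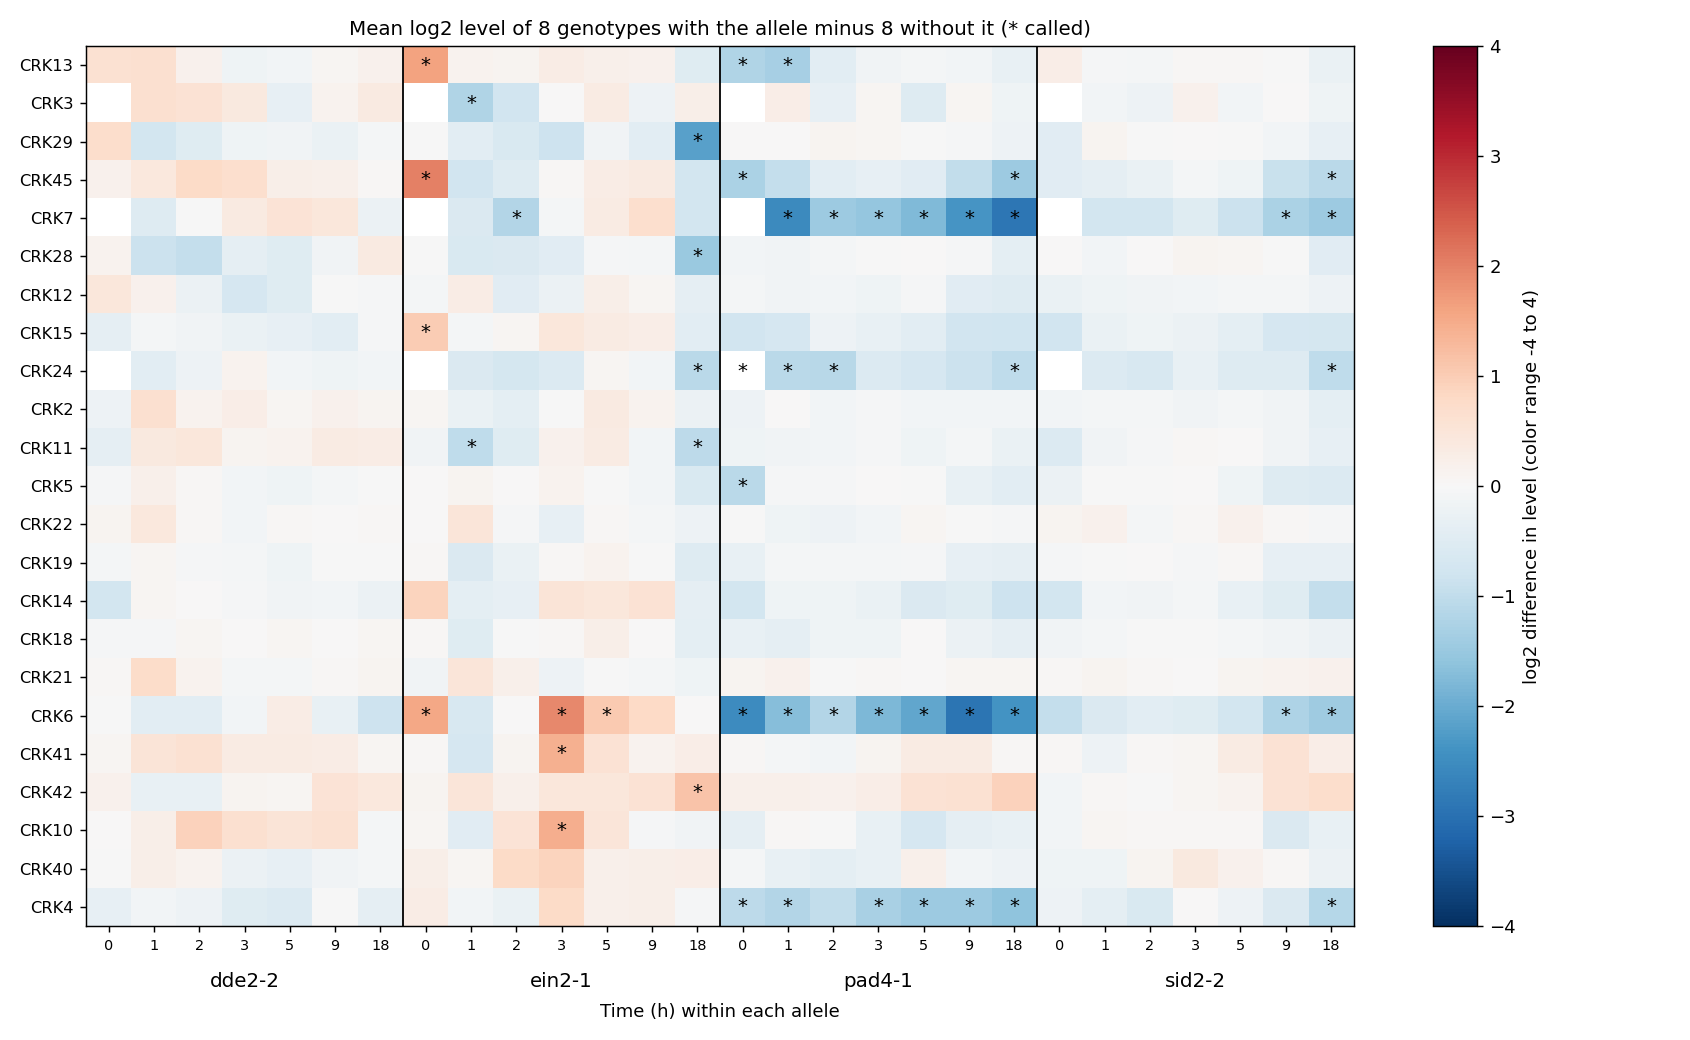
Effect of each allele (log2, mean of 8 genotypes with it minus mean of 8 without it) on the 23 tested members (rows) at 0 to 18 h (columns), with an asterisk where called; white cells have no finite value because a group had no reads. The strongest effects of pad4-1 were those on CRK6 (-2.93 at 9 h) and CRK7 (-2.89 at 18 h).

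CRK6 was lower with pad4-1 at all 7 times. At 9 h its lowest, median and highest values were 0, 12.2 and 47.9 normalized counts with pad4-1, against 19.6, 80.9 and 379.7 with PAD4 (-2.93 ± 0.26, SE, q = 1.09e-26). The ranges overlapped. At 0 h, before flg22, the effect was -2.51. CRK7, its neighbor, was lower from 1 h on, and at 18 h had 0, 15.9 and 175 with pad4-1, against 21.4, 149 and 506 with PAD4 (-2.89 ± 0.24, SE, q = 1.84e-28).

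CRK4 was lower with pad4-1 at 6 of the 7 times (-1.04 to -1.61), and at 18 h had 12.0, 44.6 and 144 normalized counts with pad4-1, against 44.2, 144 and 488 with PAD4. CRK45 was lower at 0 h (-1.26) and at 18 h (-1.44), when it had 58.0, 255 and 924 with pad4-1, against 272, 779 and 2056 with PAD4. CRK13 was lower at 0 h (-1.19) and 1 h (-1.32), CRK5 at 0 h (-1.08), and CRK24 at 0, 1, 2 and 18 h. In JEPS the means at 0 h were 1.75 for CRK13 and 5.45 for CRK24, which rest on few reads. The effect on CRK24 at 0 h has no finite value, since jeps had no read. At 18 h CRK13 had medians of 1489 with pad4-1 and 1894 with PAD4 and was not called.

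Among the 23 tested members the calls for sid2-2 were late. CRK7 at 18 h had 0, 23.4 and 236 normalized counts with sid2-2, against 5.77, 149 and 506 with SID2 (-1.44 ± 0.24, SE, q = 1.81e-07). CRK6 at 18 h had 6.25, 45.2 and 204 with sid2-2, against 6.12, 241 and 690.0 with SID2 (-1.43 ± 0.19, SE, q = 3.36e-11). The ranges overlapped widely. CRK4 (-1.13), CRK24 (-1.003) and CRK45 (-1.08) were called at 18 h alone, and without replicate 1 the calls of CRK24 and CRK45 were lost, without replicate 2 that of CRK4, and with a replicate block within time that of CRK24. Split by both genes at 18 h, CRK6 had a median of 26.2 with pad4-1 and sid2-2, 64.4 with pad4-1 and SID2, 95.2 with PAD4 and sid2-2, and 339.5 with both intact (12 libraries each). CRK7 had medians of 13.2, 24.5, 76.0 and 224 in that order. The interaction of pad4-1 and sid2-2 was not called for either.

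The effects of ein2-1 ran in both directions. At 0 h CRK45 had 4.55, 43.7 and 305.6 normalized counts with ein2-1, against 0, 12.2 and 85.7 with EIN2 (2.01 ± 0.24, SE, q = 6.40e-14). CRK6 (1.55), CRK13 (1.60, near the limit of detection at 0 h in JEPS) and CRK15 (1.01) were also higher at 0 h. CRK10 at 3 h had 110, 176 and 304 with ein2-1, against 27.6, 64.5 and 169 with EIN2 (1.44 ± 0.11, SE, q = 5.31e-26), and CRK6 (1.93) and CRK41 (1.41) were higher at that time too. CRK29 at 18 h had 3.00, 12.6 and 34.7 with ein2-1, against 32.8, 59.6 and 101 with EIN2 (-2.17 ± 0.18, SE, q = 2.99e-28). CRK28 at 18 h had 0, 24.4 and 50.5 with ein2-1, against 34.0, 66.4 and 104 with EIN2 (-1.47). CRK11 (-1.06) and CRK24 (-1.09) were lower at 18 h and CRK42 higher (1.14).

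Members under the filter included transcripts that were near 0 in fls2. With the filter on the 15th highest count alone, an alternative chosen after seeing the data, 4 of the 16 could be fitted (CRK20, CRK36, CRK37 and CRK38). CRK20 (AT4G23280) at 3 h had 174, 149 and 158 normalized counts in JEPS and 240.0, 159 and 241 in jeps, against 3.57, 2.94 and 2.73 in fls2, 1 read each. It had no read at 0 h in these genotypes, so its difference in response has no finite value. The difference from fls2 was not called at any time in JEPS or jeps. With ein2-1 CRK20 at 1 h had 0, 7.56 and 32.1, against 7.14, 48.8 and 121 with EIN2 (-2.64 ± 0.32, SE, q = 6.39e-19).

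CRK36 (AT4G04490), CRK37 (AT4G04500) and CRK38 (AT4G04510), neighbors in an array, had fewer reads with pad4-1, and in this fit 3.47% of all genes were called lower with it. CRK36 and CRK37 entered the fit only through libraries with PAD4: the 15th highest count of CRK36 was 10 with pad4-1 and 32 with PAD4, and that of CRK37 was 3 with pad4-1 and 64 with PAD4. Their pad4-1 values are therefore a description. CRK38 passed with either allele (59 with pad4-1 and 154 with PAD4). CRK38 at 3 h had 252, 201 and 248 normalized counts in JEPS, against 7.14, 11.8 and 21.8 in fls2. Its difference in response at 3 h was not called (q = 6.41e-02). It was called higher at 5 h (q = 3.57e-02) and 18 h (q = 1.11e-02), where 21.4% of genes were higher at 1 or more times. CRK37 was called higher than in fls2 at 18 h alone (4.22, q = 4.28e-02) and CRK36 at no time. At 1 h CRK38 had 0, 13.0 and 71.7 with pad4-1, against 41.7, 205 and 597 with PAD4 (-3.67 ± 0.28, SE, q = 6.94e-45). This effect at 1 h differed with ein2-1 by the test of the pair (interaction -2.21 ± 0.56, SE, q = 1.21e-02, where 1.37% of genes were called for a pair). The CRK38 medians were 7.51 with both alleles, 32.6 with pad4-1 alone, 204 with ein2-1 alone and 289 with neither (12 libraries each). Leaving out a replicate was not run in this fit. CRK38 at 1 h was also lower with ein2-1 (-1.23, where 5.86% of genes were lower at 1 or more times) and with sid2-2 (-1.05, 2.64%). CRK37 was lower with sid2-2 at 2 h, with a median of 4.78 against 16.5 with SID2 (q = 6.32e-04), and at 18 h, and CRK36 at 18 h (-1.16), so that calls for sid2-2 were early as well as late in these members. For CRK36, an FLS2-associated kinase, the pad4-1 effect was -1.06 to -2.40 at the times from 1 to 18 h. CRK37 at 18 h had 0, 6.09 and 23.9 with pad4-1, against 7.14, 98.9 and 215 with PAD4. The study chose CRK37 on these libraries as a marker of PAD4, so its decrease is not independent evidence.

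The other 12 members had 1 to 2309 reads in all libraries. CRK33 had 1 read and CRK25 had 5, so that differences were not detectable at this depth. Over 168 libraries each, CRK23 had 49 reads with pad4-1 and 364 with PAD4, CRK8 187 and 593, CRK39 542 and 1142, and CRK17 1047 and 1134. The sums of CRK16 were 170 with pad4-1 and 223 with PAD4, of CRK26 108 and 162, of CRK31 417 and 537, of CRK32 48 and 68, and of CRK34 436 and 508. CRK30 ran the other way, with 158 reads with pad4-1 and 136 with PAD4. Other alleles split some of these sums as well. CRK39 had 555 reads with ein2-1 and 1129 with EIN2, and 1024 with dde2-2 and 660 with DDE2. CRK23 had 118 reads with sid2-2 and 295 with SID2, and 269 with dde2-2 and 144 with DDE2. CRK8 had 314 with sid2-2 and 466 with SID2. For CRK30 the sum was higher with each of the 4 alleles. These sums were not tested.

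Pairs of alleles were tested for whether the effect of 1 depends on the other. Of the 23 members 2 were called (1.16% of all genes), apart from CRK38 under the filter, both for dde2-2 with pad4-1 at 18 h. CRK6 had a lowest, median and highest value of 6.12, 19.5 and 42.1 normalized counts with both alleles, 23.9, 66.9 and 215 with pad4-1 alone, 28.4, 236 and 429 with dde2-2 alone and 52.2, 241 and 690.0 with neither (interaction -1.68 ± 0.37, SE, q = 2.27e-02). CRK7 had medians of 12.6, 25.5, 163 and 141.5 in that order (-2.07 ± 0.47, SE, q = 4.51e-02). The ranges of CRK6 with both alleles and with neither did not overlap. Both calls were lost when any 1 replicate was left out (q 2.29e-01 to 9.99e-01), and that of CRK7 with a replicate block (q = 5.24e-02) and without the filter on low counts. CRK24, not called for a pair in the main fit, was called with DESeq2, with either replicate block, with a lane term and without the filter.

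**Figure D5:**
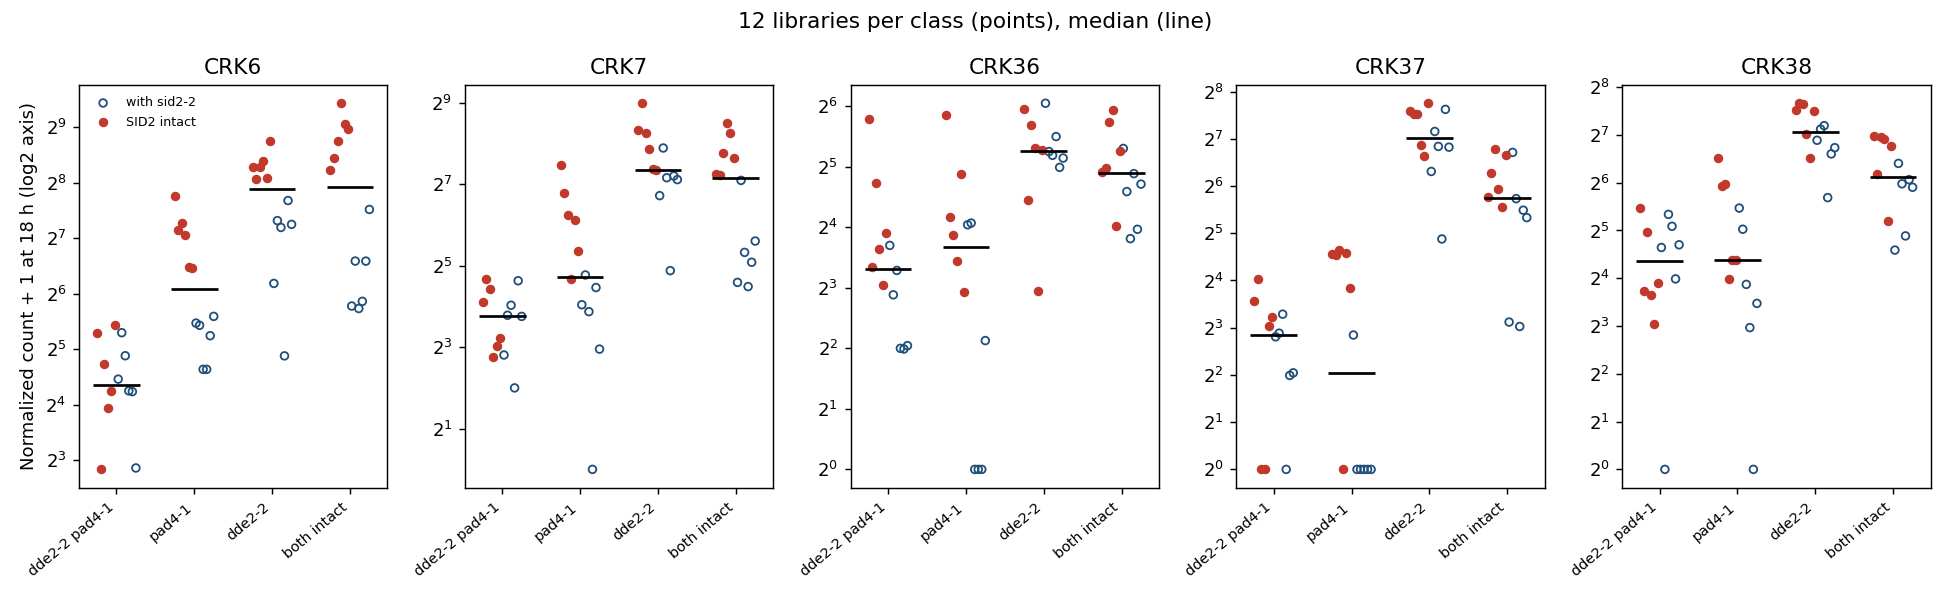
Normalized count plus 1 (log2 axis) at 18 h of CRK6, CRK7, CRK36, CRK37 and CRK38 in 4 classes by dde2-2 and pad4-1; points are the 12 libraries of a class, open with sid2-2 and filled with SID2, and lines are medians. The CRK6 median was 19.5 with both alleles, 66.9 with pad4-1 alone, 236 with dde2-2 alone and 241 with neither.

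The response (change since 0 h) of each mutant was also set against that of JEPS, without fls2 as a control. The single mutants gave 4 members (CRK5, CRK13, CRK21 and CRK45; 4.23% of all genes), jeps gave 4 (CRK10, CRK21, CRK42 and CRK45; 8.04%), and any of the 15 mutants 9 (16.6%). With a replicate block within time the single mutants gave 11 (20.4% of all genes) and jeps 7 (24.5%). Without replicate 1 the single mutants gave 2 (CRK5 and CRK45; 1.84% of genes) and without replicate 3 they gave 1 (CRK21; 0.861%). With DESeq2 they gave 4 (4.29%), but these were CRK5, CRK6, CRK10 and CRK45, without CRK13 and CRK21. With a term for lane CRK13 was not called in them either. These comparisons share the JEPS libraries. CRK21 was called higher at 1 h in 10 of the 15, and had 158, 182 and 118 normalized counts in jeps, against 41.1, 71.7 and 43.6 in JEPS (1.75 ± 0.30, SE, q = 3.29e-05). At 1 h CRK21 also fell in fls2 (-3.10), and its JEPS minus fls2 difference (-0.19) was not called.

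CRK10 at 3 h had 253, 304 and 204 normalized counts in jeps, against 42.1, 37.2 and 74.2 in JEPS (2.65 ± 0.45, SE, q = 2.21e-05). It was called higher at 3 h in 5 mutants (jePS, JepS, jePs, Jeps and jeps). These carry ein2-1, as do JePS, JePs and jepS, in which it was not called (1.42 in JePS). CRK42 at 18 h had 141, 172 and 159 in jeps, against 19.4, 5.08 and 30.0 in JEPS (2.55 ± 0.52, SE, q = 6.66e-04), and was called higher at 18 h in 9 mutants. CRK45 at 18 h had 201, 190.1 and 128 in jeps, against 1089, 1500.0 and 972.5 in JEPS (-3.53 ± 0.60, SE, q = 3.40e-05). In jeps the call of CRK21 was lost without replicate 1, that of CRK42 without replicate 2 and that of CRK45 without replicate 3.

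CRK45 in JePS, the ein2-1 single mutant, had a lower response at all 6 times (-2.09 to -2.90). Its level at 0 h was 228, 68.4 and 175 in JePS, against 85.7, 11.8 and 7.89 in JEPS, and the part of this starting level in the lower response was not tested. CRK5 at 9 h had 151, 130.5 and 142 normalized counts in JEPs, the sid2-2 single mutant, against 242, 352 and 285 in JEPS (-1.79 ± 0.43, SE, q = 1.20e-02). CRK13 had a lower response in JePS at 18 h (-3.73 ± 1.06, SE, q = 7.35e-03), where the JEPS value at 0 h rests on 2 reads. In the comparison of alleles CRK13 was also higher at 0 h with ein2-1. The part of the starting level in the lower response of CRK13 was not tested. CRK14 was called in jEps alone, CRK6 in jePS and JePs, and CRK7 in jePS.

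Related genes were counted in the same way. Of 10 genes of the pattern receptor complex 9 were tested, and 7 rose more in JEPS than in fls2 (BAK1, SERK4, BIK1, PBL1, RBOHD, CERK1 and LYK5), where 22.4% of all genes did. FLS2 is among the 9 and was not called. As FLS2 is the gene mutated in fls2, its difference from fls2 cannot be read as a response to flg22. RBOHD, on which CRK2 acts, differed by 2.87 at 1 h, and BAK1, the partner of CRK28, by 2.499 at 5 h. Only LYK5 of these 9 was lower with pad4-1, while FLS2 and RBOHD were lower with ein2-1 (4.43% of all genes). Of 8 genes of the salicylic acid branch 6 were tested, and all 6 were lower with pad4-1 (2.61% of all genes) and 4 with sid2-2 (2%). Of the 8 PDLP genes, whose proteins have DUF26 domains but no kinase, 2 were tested. PDLP3 was lower in JEPS than in fls2 (-4.56 at 3 h) and higher with pad4-1 (1.20 at 18 h), while HWI1 was lower with pad4-1 (-1.86 at 18 h).

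Over the 119 group means the CRK pairs with the most similar levels were CRK19 with CRK11 (Pearson r 0.976), CRK29 with CRK28 (0.963), CRK11 with CRK2 (0.959), CRK19 with CRK2 (0.959) and CRK22 with CRK21 (0.957). The group means share times and depth, and CRK28 and CRK29 share sequence. CRK2 lies on chromosome 1, and CRK11 and CRK19 on chromosome 4.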

How the data were processed

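Leaf RNA was profiled by stranded Tag-Seq. The authors aligned reads to TAIR10 transcripts with Bowtie 0.12.8, kept forward-strand reads unique to a gene and deposited raw read counts per gene and library. Sequences and positions came from RefSeq TAIR10.1. Counts were fitted with edgeR 4.0.16 (quasi-likelihood) with 1 mean per genotype and time (119 groups) and the log of the 90th percentile count over 300 as offset. Genes with fewer than 50 libraries without reads and a 15th highest count above 25 were kept (11848). The study's methods word this filter alike and give a larger number of genes, and the reason was not found. Storey q-values were taken over all genes and comparisons of a kind, and a call needed q under 0.05 and an absolute log2 difference above 1. Groups without reads were given a prior count of 0.125 for that threshold and no finite value is printed.

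By the study's methods each replicate pools leaves of 4 experiments, so replicate numbers were taken to pair libraries. Deviations from group means correlated by 0.291 when 2 libraries had one time and replicate number (2856 pairs, 2744 above 0.1). For one replicate number at different times the mean was 0.06 (18207 pairs). Libraries of one time and replicate also tended to share a lane, and what gave the correlation was not tested. Groups came from the sample labels. Tests were tried on simulated data with the same spread for all genes and no correlation between libraries, unlike these data. No result here rests on that trial. Alternatives were TMM, DESeq2 1.42.0, other filters, replicate blocks, lane terms, Benjamini-Hochberg values, no fold threshold and leaving out each replicate. Values per replicate are given for the up to 8 members with the largest response difference, those of known role, the 2 with the largest effect of each allele, CRK37 and members called for an allele pair, and other members were named after their values were seen. The members and lists were chosen with earlier results of these data known.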

Additional observations from a re-analysis of the deposited data

Results flagged for a closer look

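In the quadruple mutant jeps the change since 0 h differed from that in JEPS for 4 members (8.04% of all genes) by the test. Log2 differences were 2.65 for CRK10 at 3 h and 1.75 for CRK21 at 1 h. They were 2.55 for CRK42 and -3.53 for CRK45, both at 18 h. At 1 h CRK21 also fell in fls2 (-3.10), and its JEPS minus fls2 difference (-0.19) was not called. The call of CRK21 was lost without replicate 1, that of CRK42 without replicate 2 and that of CRK45 without replicate 3. The effect of pad4-1 at 18 h differed with dde2-2 for CRK6 (-1.68) and CRK7 (-2.07), and neither of these calls was kept when any 1 replicate was left out. With the filter on the 15th highest count alone, the effect of pad4-1 on CRK38 at 1 h differed with ein2-1 (-2.21).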

How the results depend on the processing

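Of 208 values of 20 named results under the alternatives, 191 stayed on their side of the threshold, 17 lost their call and 0 changed sign. The 20 results were picked among those called in the main fit, mostly as the largest, so such agreement was likely from the start. The alternatives in this count include those chosen after seeing the data. Values with no finite estimate were left out of this tally. It therefore holds 19 of the 20 results without replicate 1 and 17 without replicate 3. Shares of all genes called are in parentheses. Without the filter on low counts 13 of 39 members were called for pad4-1 (3.76%), 9 for sid2-2 (3.36%), 18 higher (8.21%) and 4 lower (16.4%) in JEPS than fls2 and 19 in jeps against fls2 (16.1%), and with the filter on the 15th highest count alone, chosen after seeing the data, 8 of 27 for sid2-2 (4.28%). Without the fold threshold they were 18 of 23 for dde2-2 (50.6%), 22 for ein2-1 (68.7%), 14 for pad4-1 (40.9%) and 15 for sid2-2 (39.9%). With a term for lane, allele pairs gave 4 (3.14%), single mutants 8 (16.8%) and jeps against JEPS 7 (19.6%), while 19 were higher (24%) and 4 lower (39.7%) in JEPS than fls2, 19 called in jeps against fls2 (51.4%), 12 for ein2-1 (9.92%) and 4 for sid2-2 (3.19%).

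With a replicate block within time, single mutants gave 11 (20.4%), jeps against JEPS 7 (24.5%) and sid2-2 4 (3.27%). The plain replicate block gave 21 members higher (23.6%) and 5 lower (36.8%) in JEPS than fls2, 20 in jeps against fls2 (42.7%), 0 for dde2-2 (6.41%), 13 for ein2-1 (10%), 7 for pad4-1 (3.52%), 5 for sid2-2 (3.33%), 2 for pairs (1.53%), 4 for single mutants (6.34%) and 6 for jeps against JEPS (11.1%). With each replicate left out in turn, the counts were 16 to 20 higher (14.2 to 19%) and 4 to 4 lower (23.3 to 32.1%) in JEPS than fls2, 16 to 20 in jeps against fls2 (22.6 to 35%), 15 to 21 over time in fls2 (50 to 59.7%), 0 to 1 for dde2-2 (6.85 to 7.27%), 10 to 14 for ein2-1 (9.88 to 12.1%), 7 to 7 for pad4-1 (4.03 to 4.1%), 3 to 6 for sid2-2 (3.43 to 4.23%), 0 to 0 for pairs (0.422 to 0.549%), 1 to 3 for single mutants (0.861 to 2.4%), 3 to 3 for jeps against JEPS (2.82 to 4.09%) and 0 to 0 for fls2 against JEPS at 0 h (0.00844 to 0.0253%). Equal counts need not hold the same members. Without replicate 3 the pad4-1 calls lost CRK5 and gained CRK14, and with the plain replicate block the pair calls were those of CRK6 and CRK24. Depth limits members with few reads at 0 h. The causes of these changes were not tested.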
